A study of Mus musculus with 6 samples.

Results

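The 8 genes described here encode proteins of photoreceptors and of the neighbouring pigment epithelium, and most of them are known from inherited blindness. They were taken by symbol, namely Pde6d, Pdc, Rd3, Cnga3, Sag, Crb1, Rp1 and Kcnj13, and each matched 1 of the 1140 complete rows analysed, all on chromosome 1. The study compared whole retinas of C57BL/6 mouse embryos at E15.5, a stage counted in embryonic days, between T2Isl1/+ and T2fx/+ animals, with 3 libraries per genotype, each from a pool of 8 retinas. T2Isl1/+ animals carried a knock-in of Isl1 at the Tbr2 (Eomes) locus on 1 chromosome copy, and T2fx/+ animals, which the submitters call wild type, carried the T2fx allele of Tbr2 on 1 copy. Neither group was therefore free of an engineered Tbr2 allele, and Tbr2 is known from a subset of ganglion cells rather than from photoreceptors. The labels do not say whether pools shared litters.

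Photoreceptors turn light into a neural signal through a cascade in which a visual pigment activates the G protein transducin, a phosphodiesterase lowers cyclic GMP, and a cyclic nucleotide gated channel closes. The proteins are packed into an outer segment, a modified cilium that must be built and supplied before the cell can respond. In the mouse, cones and the first rods are born before birth, most rods are made later, and outer segments form only after birth. The retina at this stage thus holds young photoreceptor precursors among many dividing progenitors, ganglion cells and amacrine cells.

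Each gene had a single group value, read as FPKM (a fragment count divided by transcript length and by library size), into which the authors had combined the 3 libraries. No value per library, SD or interval could therefore be given for a gene, and library depth is unknown. FPKM is scaled by length, so levels can be set side by side between genes. In bulk RNA, fewer cells of a type and less RNA per cell cannot be told apart. The question addressed is which of the 8 genes were already expressed at E15.5, and whether their levels differed between T2Isl1/+ and T2fx/+ retinas.

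Promoter windows are shown first for 3 photoreceptor genes that stood at different levels, the apical polarity gene Crb1 and the phosducin gene Pdc, both above 10 FPKM in the authors' deposited table, and the rod arrestin gene Sag, which was below 1 FPKM. Each is the RefSeq window of 300 bases (build GRCm38.p6), from 250 bases before the start site to 50 bases from it, read 5′ to 3′ on the gene's own strand. The windows lie at chr1:139377027-139377326 on the minus strand for Crb1, chr1:150319167-150319466 on the plus strand for Pdc and chr1:87803430-87803729 on the plus strand for Sag. Capitals mark matches on either strand to TAATCC, the core recognised by the photoreceptor factors Crx and Otx2, and to TGCTGA, a half-site letter string of Maf-family factors such as the rod factor Nrl.
Crb1: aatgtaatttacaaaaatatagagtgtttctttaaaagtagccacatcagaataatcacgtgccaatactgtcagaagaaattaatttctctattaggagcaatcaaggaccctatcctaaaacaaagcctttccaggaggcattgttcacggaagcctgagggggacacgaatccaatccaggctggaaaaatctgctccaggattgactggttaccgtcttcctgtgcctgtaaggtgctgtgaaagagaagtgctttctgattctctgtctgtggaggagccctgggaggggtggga
Pdc: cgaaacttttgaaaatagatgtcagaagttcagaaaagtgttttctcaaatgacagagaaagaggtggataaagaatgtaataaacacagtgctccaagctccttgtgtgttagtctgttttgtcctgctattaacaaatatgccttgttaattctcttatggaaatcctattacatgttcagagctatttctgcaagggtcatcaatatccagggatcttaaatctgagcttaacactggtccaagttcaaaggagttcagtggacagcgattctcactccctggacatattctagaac
Sag: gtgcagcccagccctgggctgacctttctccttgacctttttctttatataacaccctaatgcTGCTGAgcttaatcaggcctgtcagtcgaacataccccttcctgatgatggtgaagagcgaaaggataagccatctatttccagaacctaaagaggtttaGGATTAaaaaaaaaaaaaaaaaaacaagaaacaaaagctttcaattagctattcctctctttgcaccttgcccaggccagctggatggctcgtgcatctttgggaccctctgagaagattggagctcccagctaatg

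Of the 7 genes with a window in that RefSeq table, Sag was the 1 gene with a match, and it had both letter strings. TGCTGA began 187 bases before its start site on the gene's strand, and TAATCC lay on the other strand, where it reads GGATTA, beginning 87 bases before the start. Among all 32851 windows of this length, 7.06% held TAATCC, 19.5% held TGCTGA and 1.36% held both. The other 6 genes, which include the more highly expressed Pde6d, Pdc and Crb1, had neither string in these windows. The matches describe letters only. Rp1 was not matched in the table.

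At a level of at least 1 FPKM, 4 of the 8 genes were expressed in T2Isl1/+ retinas and the same 4 in T2fx/+ retinas, namely Pde6d, Crb1, Pdc and Cnga3, by the values of the authors' deposited table. Over all rows the share at or above 1 FPKM was 51.7% in T2Isl1/+ and 51.8% in T2fx/+ retinas, against 50% of the 8 genes in each. At 0.5 FPKM the share was 75% of the 8 genes in each group, against 56.1% of rows in T2Isl1/+ and 56.3% in T2fx/+ retinas. At 5 FPKM it was 37.5% in each group, against 39.4% of rows in T2Isl1/+ and 39.7% in T2fx/+ retinas. The 8 genes were thus above or below all rows depending on the level chosen, and no excess is read from so few. Their order by level was the same in both groups, from Pde6d through Crb1, Pdc, Cnga3, Rd3, Kcnj13 and Sag to Rp1. The 3 highest genes made up 96.1% of the summed level of the 8 in T2Isl1/+ and 95.7% in T2fx/+ retinas. Because the spread between libraries was not used here, neighbours at close levels, such as Crb1 and Pdc or Rd3 and Kcnj13, cannot be ranked with an error.

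**Figure D1:**
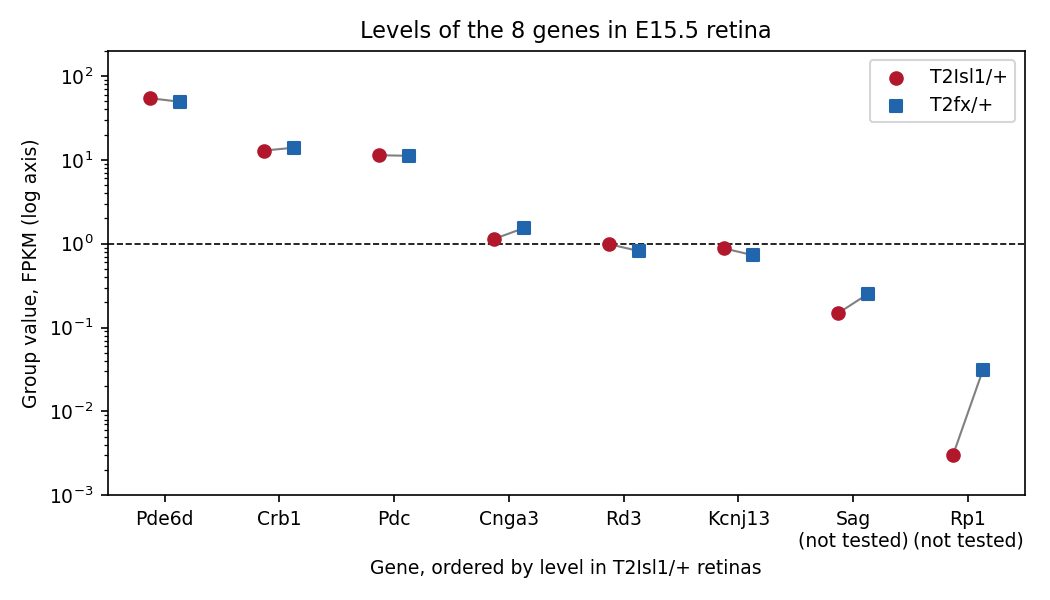
Group value in FPKM (log axis) of each of the 8 genes in T2Isl1/+ (circles, left) and T2fx/+ retinas (squares, right), 1 combined value per group from 3 libraries each, with a dashed line at 1 FPKM. Pde6d stands near 50 FPKM, Crb1 and Pdc between 11 and 14, Cnga3, Rd3 and Kcnj13 near the line, and Sag and Rp1, which were not tested, below it.

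None of the tested genes passed the authors' test between T2Isl1/+ and T2fx/+ retinas, and Sag and Rp1 were not tested. Of the 6 that were tested, 0 had a q-value under 0.05 in the authors' deposited table, where 1.55% of the 646 tested rows did, and the q-value was 1.00 for all 6. By unadjusted p-value under 0.05 the count was again 0 of 6, against 3.72% of tested rows. With so few called rows, a count of 0 among 6 is near the background and does not show that the levels were alike. The 6 log2 fold changes of T2Isl1/+ over T2fx/+ ran from -0.43 to 0.28, with 4 above and 2 below 0 and a median of 0.08 in the authors' deposited table. Over all tested rows the median was 0.01, 54.6% were above 0, and the 5th and 95th percentiles were -0.34 and 0.26. Of the 6, Cnga3, Rd3 and Kcnj13 lay outside that range. These 3 were the lowest of the 6 in level, between 0.728 and 1.53 FPKM. The median tested row had 10.4 FPKM in T2Isl1/+ and 10.7 FPKM in T2fx/+ retinas. Rows of like level were not set beside them, so no effect on the 3 genes is read from this. None of the 6 reached a 1.5-fold difference, as was so for 96.7% of tested rows.

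**Figure D2:**
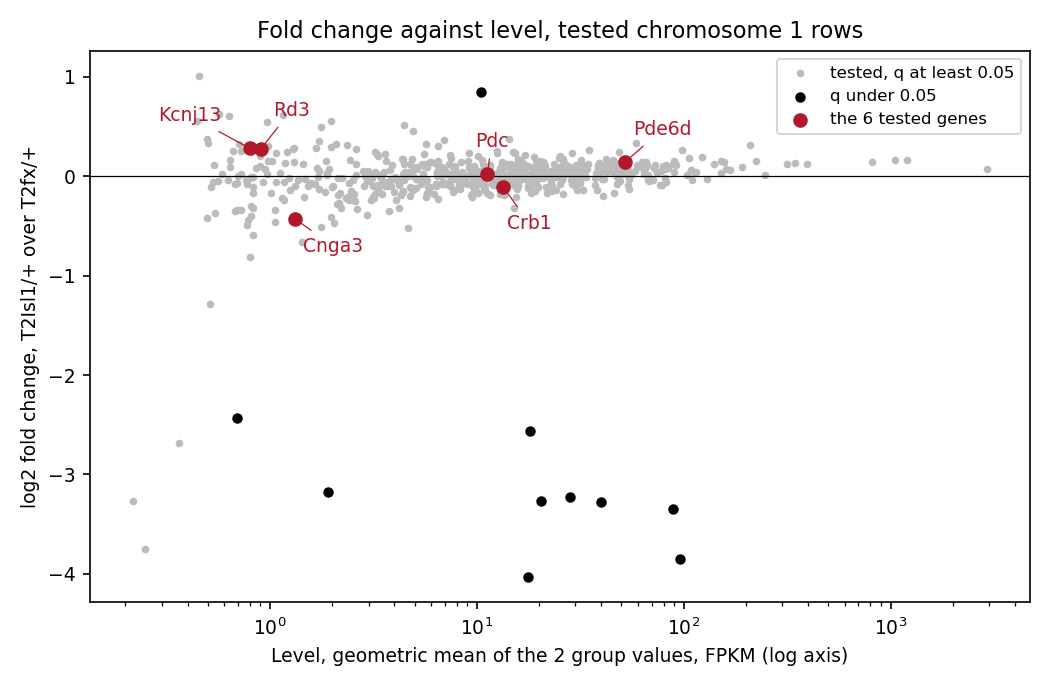
The log2 fold change of T2Isl1/+ over T2fx/+ against level (geometric mean of the 2 group values in FPKM, log axis) for the 646 tested rows of chromosome 1, with the 6 tested genes in red and rows at a q-value under 0.05 in black. The 6 genes lie between -0.43 and 0.28, and none is among the 10 black rows.

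Pde6d was the most abundant of the 8. It encodes the prenyl-binding protein PDE delta, a soluble carrier that lifts lipid-anchored proteins off membranes and helps deliver them to the cilium and outer segment, and it is active in many tissues besides the retina. Its human counterpart is linked to Joubert syndrome, a ciliopathy. Pde6d is annotated at chr1:86542994-86582629 on the minus strand (GRCm38), with 5 exons in its longest transcript. In the authors' deposited table it had 54.4 FPKM in T2Isl1/+ and 49.4 FPKM in T2fx/+ retinas. It was above 94.4% of rows in T2Isl1/+ and 93.3% in T2fx/+ retinas. The log2 fold change was 0.14, a value 10.1% higher in T2Isl1/+ that did not pass the test (p = 0.403, the authors' deposited table). Of all tested rows, 29.4% had a larger fold change in either direction.

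The authors' row for Pde6d spans the same region as that of Cops7b, a COP9 signalosome gene on the opposite strand whose annotated start lies just upstream of Pde6d. Cops7b had 34.0 FPKM in T2Isl1/+ and 31.7 FPKM in T2fx/+ retinas (log2 fold change 0.10, the authors' deposited table), so both rows of the pair stood slightly above T2fx/+. No source used here states whether reads were counted by strand.

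The cascade genes of phototransduction differed widely in level. Pdc encodes phosducin, a photoreceptor phosphoprotein that binds the beta and gamma subunits of transducin. It had 11.4 FPKM in T2Isl1/+ and 11.2 FPKM in T2fx/+ retinas, the smallest relative difference among the 8 genes (log2 fold change 0.02, p = 0.897, the authors' deposited table). Of the tested rows, 85.6% differed by more. Pdc thus stood above 73.1% of rows in T2Isl1/+ and 72.5% in T2fx/+ retinas while the rod protein gene Sag was still low. Pdc lies at chr1:150319417-150333906 on the plus strand and overlaps an antisense gene, 2310030A07Rik, which was listed at 0 in both groups in the authors' deposited table.

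Cnga3 had the largest difference of the 6 tested genes. It encodes the channel subunit of cones that opens with cyclic GMP, and loss of the human gene causes achromatopsia, a lack of cone vision. The level was 1.14 FPKM in T2Isl1/+ and 1.53 FPKM in T2fx/+ retinas, a difference of -25.7% and a log2 fold change of -0.43 by the authors' deposited table. This did not pass, with an unadjusted p-value of 0.0764 and, like the other tested genes, a q-value of 1.00 (the authors' deposited table). The p-value was the smallest among the 6, and 5.11% of tested rows had a larger fold change. Cnga3 lies at chr1:37214434-37263384 on the plus strand, has 6 exons in its longest transcript and overlaps no other annotated gene. At this stage its level was well below that of Pdc, which was 9.96 times as high in T2Isl1/+ and 7.28 times as high in T2fx/+ retinas by the authors' deposited table.

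Rd3 lay just below the 1 FPKM line in both groups. Its product binds retinal guanylate cyclases, holds them inactive and escorts them to the outer segment, and loss of the human gene causes Leber congenital amaurosis, a blindness of early childhood. The authors' deposited table has 0.990 FPKM in T2Isl1/+ and 0.820 FPKM in T2fx/+ retinas, a log2 fold change of 0.27 (p = 0.306). The gene occupies chr1:191977370-191988283 on the plus strand, and an antisense gene, Gm26670, overlaps it.

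Sag was listed at 0.149 FPKM in T2Isl1/+ and 0.253 FPKM in T2fx/+ retinas and was not tested in the authors' deposited table. It encodes rod arrestin, which ends the signal of light-activated rhodopsin and is among the most abundant proteins of mature rods. Loss of the human gene causes Oguchi disease, a form of night blindness. At E15.5 the Pdc level was 76.2 times that of Sag in T2Isl1/+ and 44.1 times in T2fx/+ retinas by the authors' deposited table. Both Sag values were below 0.516 FPKM, the highest value of any untested row, and no direction is read from them. Sag lies at chr1:87803680-87845158 on the plus strand, with 11 exons in its longest transcript and no overlapping gene.

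The 2 structural genes stood far apart in level. Crb1 encodes a transmembrane protein of the apical complex that holds photoreceptors and Müller glia together at the outer limiting membrane. Mutations of the human gene cause Leber congenital amaurosis and retinitis pigmentosa, and a frameshift allele of Crb1 is carried by the C57BL/6N substrain, while the labels say C57BL/6 only. Crb1 had 12.9 FPKM in T2Isl1/+ and 14.0 FPKM in T2fx/+ retinas, above 74.9% of rows in T2Isl1/+ and 75.9% in T2fx/+ retinas. The log2 fold change was -0.11 (p = 0.348, the authors' deposited table), and 37.6% of tested rows differed by more. Which cells of the whole retina gave the Crb1 RNA was not tested. The gene spans 180 kb at chr1:139197056-139377100 on the minus strand and overlaps no other annotated gene.

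Rp1 was almost undetected, with 0.00304 FPKM in T2Isl1/+ and 0.0312 FPKM in T2fx/+ retinas and no test in the authors' deposited table. Its product decorates the microtubules of the outer segment and keeps its discs stacked, and the human gene is a common cause of dominant retinitis pigmentosa. The deposited log2 fold change of -3.36 is a ratio of 2 values near 0, and with 1 FPKM added to both values it was -0.04. Rp1 is annotated at chr1:3999557-4409241 on the minus strand, while the authors' row begins at 4290846.

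Kcnj13 is the pigment epithelium gene of the 8. It encodes the potassium channel Kir7.1 of the apical membrane of that epithelium, which faces the photoreceptors, and the human gene is linked to Leber congenital amaurosis and snowflake vitreoretinal degeneration. It had 0.883 FPKM in T2Isl1/+ and 0.728 FPKM in T2fx/+ retinas (log2 fold change 0.28, p = 0.88, the authors' deposited table). The gene, at chr1:87386363-87394729 on the minus strand, lies wholly within Gigyf2 on the plus strand, and both rows carry the span of Gigyf2. Gigyf2 had 12.2 FPKM in T2Isl1/+ and 12.6 FPKM in T2fx/+ retinas, which was 13.8 times the Kcnj13 level in T2Isl1/+ and 17.3 times in T2fx/+ retinas (the authors' deposited table). Of the 1270 annotated exon bases of Kcnj13, 623 (49.1%) also lie in annotated exons of Gigyf2. Without a stated strand, reads from those shared bases cannot be assigned to 1 gene by position alone, and the Kcnj13 value is uncertain.

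Kcnj13 also stood apart in how its fold change compared with the authors' test score. The fold change behind 1 unit of the authors' test score, on the log2 scale, was 2.13 for Kcnj13, larger than in 99.2% of tested rows of the authors' deposited table. For the others it was 0.47 for Rd3, 0.43 for Cnga3, 0.32 for Pdc, 0.29 for Pde6d and 0.21 for Crb1, against a median of 0.24 over tested rows. A fold change of given size thus came with the highest score for Crb1 and the lowest for Kcnj13. The score is not defined in the file header, so the ratio is used here only to order the rows. Whether it equals a standard error was not checked.

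**Figure D3:**
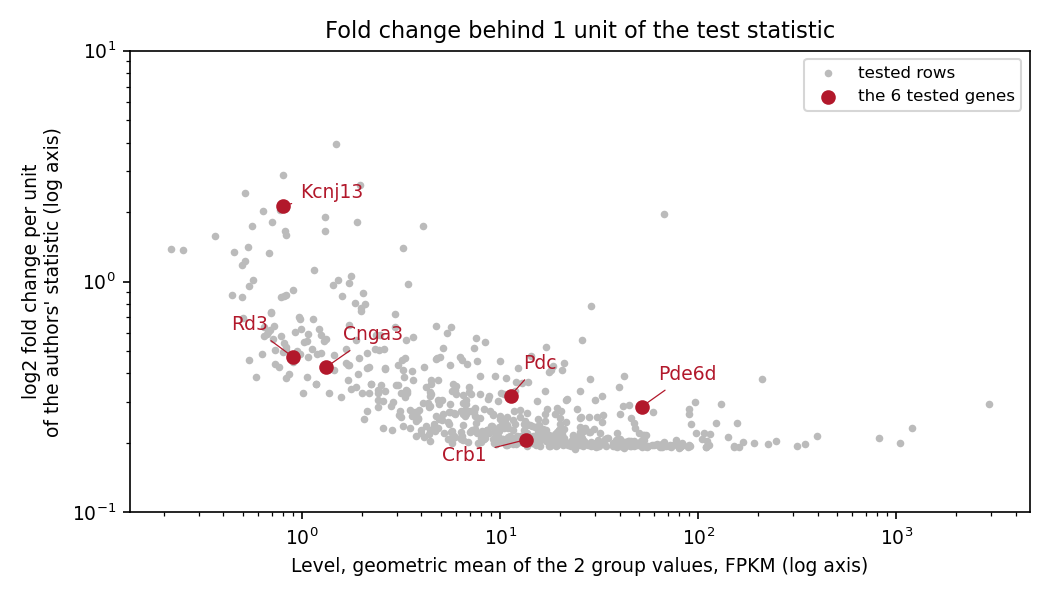
The log2 fold change divided by the authors' test score (log axis) against level in FPKM (geometric mean of the 2 groups, log axis) for the 646 tested rows, with the 6 tested genes in red. Kcnj13, at 2.13, sits above nearly all rows, while Crb1, at 0.21, has the lowest ratio of the 6 and lies below the median of 0.24.

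Further retinal genes of chromosome 1 were read for comparison. Lists of phototransduction, photoreceptor cilium and outer segment, photoreceptor fate, retinoid cycle and pigment epithelium, syndromic and other inherited retinal disease genes together named 156 further genes, of which 19 had a row and 17 rows were tested. At a q-value under 0.05 there were 0 of these in either direction by the authors' deposited table, a count near the background of 1.55%. The count by unadjusted p-value under 0.05 was again 0, against 3.72% of all tested rows, with a smallest p of 0.363. Their median log2 fold change was 0.02, beside 0.01 for all tested rows. None of the 30 further phototransduction genes listed was among the rows, so Pdc, Cnga3, Rd3, Sag and Pde6d stand alone for that cascade here. The rows cover chromosome 1 only, so a listed gene without a row is not thereby shown to be unexpressed.

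Of the cilium and outer segment genes, Kifap3, a subunit of the kinesin that moves cargo along the photoreceptor cilium, had 31.2 FPKM in T2Isl1/+ and 32.1 FPKM in T2fx/+ retinas in the authors' deposited table. Of the fate genes, Rxrg, a nuclear receptor of young cones, had 12.0 FPKM in T2Isl1/+ and 11.1 FPKM in T2fx/+ retinas (log2 fold change 0.11, p = 0.39, the authors' deposited table), a level close to that of Pdc and Crb1. Beside Kcnj13, the retinoid and pigment epithelium list held 3 further rows, and none of its 4 rows was at 0. Rdh10, which oxidises retinol, had 31.1 FPKM in T2Isl1/+ and 26.5 FPKM in T2fx/+ retinas in the authors' deposited table. Mreg, which acts in melanosome transport, had 2.06 FPKM in T2Isl1/+ and 2.31 FPKM in T2fx/+ retinas, above Cnga3, and Mlph of the same process had 0.0998 FPKM in T2Isl1/+ and 0.151 FPKM in T2fx/+ retinas and was not tested (the authors' deposited table). Pigment epithelium carried along with the retinas was not tested as a part of the Kcnj13 value.

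**Figure D4:**
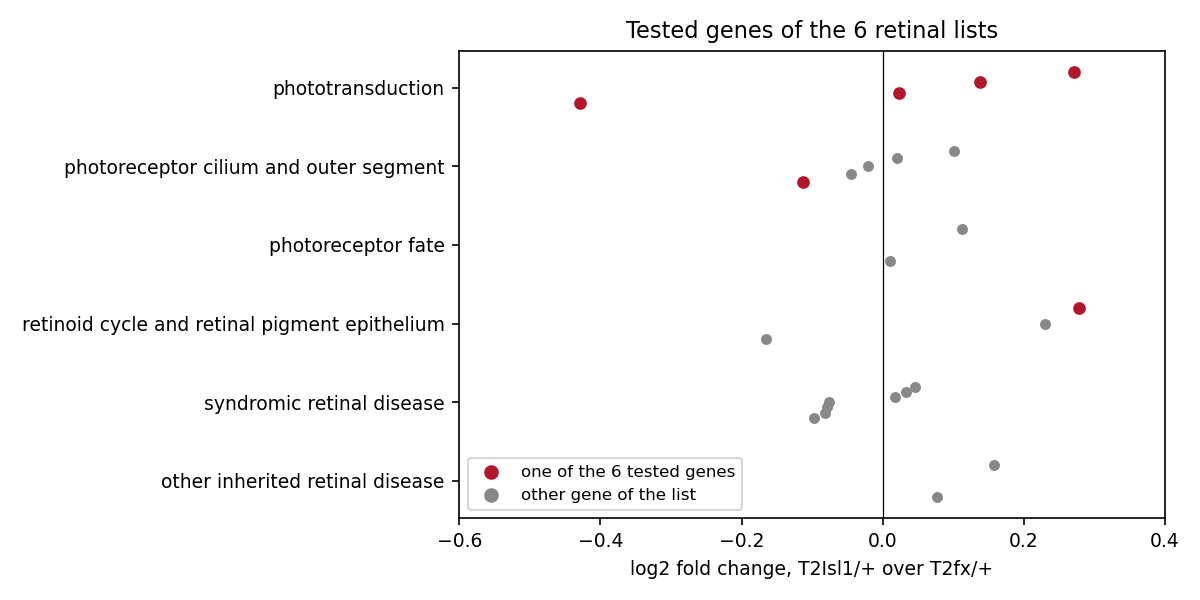
The log2 fold change of T2Isl1/+ over T2fx/+ for the tested genes of 6 retinal lists, with the 8 genes' tested members in red and other genes of each list in grey, 1 point per row. All points lie between -0.43 and 0.28, and Cnga3 is the lowest.

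Some genes of surrounding tissue passed the test. The share over all tested rows was 1.55%, which includes these same genes. All 7 tested lens genes were lower in T2Isl1/+ at a q-value under 0.05, with a summed level over the list of 93.6 FPKM in T2Isl1/+ and 1038 FPKM in T2fx/+ retinas in the authors' deposited table, and the remaining gene, Lgsn, was listed at 0 in both. Of the mesenchyme list, 1 of 6 tested genes, Col3a1, was called lower in T2Isl1/+, and the list summed to 52.4 FPKM in T2Isl1/+ and 65.1 FPKM in T2fx/+ retinas in the authors' deposited table. Of the skeletal muscle list, 1 of 3 tested genes, Chrng, was called lower in T2Isl1/+, the sums were 1.47 FPKM in T2Isl1/+ and 4.24 FPKM in T2fx/+ retinas, and Chrnd was listed at 0 in both (the authors' deposited table). The part of such tissue in the values of the 8 genes was not tested.

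By the 2 group values alone, the tested row most like each gene was Ormdl1 for Pde6d, Mstn for Crb1, Kdelc1 for Pdc, Fam129a for Rd3, Arid5a for Kcnj13 and Unc80 for Cnga3. The distances on the log2 scale of the authors' deposited table were 0.03, 0.04, 0.07, 0.12, 0.19 and 0.23 in that order. Cnga3 therefore had the least close neighbour of the 6.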

How the data were processed

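Total RNA of 6 libraries was sequenced on Illumina instruments, 3 per genotype, each from a pool of 8 retinas, and groups were taken from the sample titles. Per the submitters' processing notes, build mm10 and the tools TopHat2 2.1.1, Cufflinks 2.1.1 and CASAVA were used, in an order not stated, and no source used here states the gene annotation. The deposited file is laid out as Cuffdiff writes a gene comparison. Its group values were read as FPKM, a unit inferred from the tool named by the authors. The deposited log2 fold change is T2Isl1 over T2fx without a pseudocount, per the file headers, and differed from the log2 ratio recomputed here by at most 1.06e-05. The signed test score and the p-value and q-value of each row are the authors', per the file headers.

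Of 1141 rows, 1 incomplete row was left out, and only chromosome 1 was analysed here. The authors had tested 646 rows. No new test of a gene was made, since each group has 1 combined value. A row was called at a q-value under 0.05. The 8 genes and the lists were chosen with earlier results of these data known. All 8 genes were to be named, together with tested genes of the retinal lists and the nearest row of each. The ganglion cell list (0 of 5 tested rows called) and the progenitor list (0 of 4) served as markers of other cells. Both counts are near the 1.55% of all tested rows called. All 5 ganglion cell rows had a log2 fold change below 0 (median -0.18), as did 3 of the 4 progenitor rows (median -0.03). No effect is read from so few rows. Positions come from GENCODE M21 (GRCm38, the assembly of mm10), with 1 added to starts in the table. Code was tested on simulated data and run in Python 3.11.15 with pandas 2.3.3. Results for some listed genes are not reported here.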

Additional observations from a re-analysis of the deposited data

How the results depend on the processing

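At a q-value threshold of 0.01 the count of called rows was 0, since the smallest q-value of any tested row was 0.0116. At an unadjusted p-value under 0.05 the count of called rows was 24, against 10 at a q-value under 0.05. The count of called genes among the 8 was 0 in each of these and in the 6 other settings. A q-value threshold of 0.1 and adjustment over the analysed rows alone each gave 11 called rows. Floors of 1 and 5 FPKM gave 10 and 9 called rows. A minimum fold of 1.5 gave 10, as did leaving out joined, repeated or missing names. The 0.01 threshold, the floors, the minimum fold and the name filter can only remove calls. They could therefore not have raised a count of 0. With an expressed level of 0.1 FPKM in place of 1 FPKM, 7 of the 8 genes were expressed in T2Isl1/+ and 7 in T2fx/+ retinas, since Rd3, Kcnj13 and Sag then entered, and of all rows 63.9% in T2Isl1/+ and 65.5% in T2fx/+ retinas were. At 0.5 FPKM the count was 6 in each group (all rows 56.1% in T2Isl1/+ and 56.3% in T2fx/+), and at 5 FPKM it was 3 (39.4% in T2Isl1/+ and 39.7% in T2fx/+). The log2 fold changes of the 8 genes kept their sign in all 24 settings of pseudocount and centring, and a pseudocount cannot turn a sign. For Sag the value was -0.76 as deposited and -0.13 with a pseudocount of 1 FPKM (the authors' deposited table). Leaving out a replicate was not run, since no value per library was analysed. Depth is unknown, and the rows that the authors left untested, Sag and Rp1 among them, were at or under 0.516 FPKM in both groups. No paired analysis was possible because each group has a single combined value with no replicate number.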

Other observations

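Ciliopathy and other eye disease genes of chromosome 1 were expressed at moderate levels in both genotypes. All 7 genes of the syndromic list with a row were at or above 1 FPKM and tested, and 0 were called in the authors' deposited table, a count near the 1.55% of all tested rows, with log2 fold changes between -0.10 and 0.05. Rab23, a small GTPase that limits hedgehog signalling, had 8.63 FPKM in T2Isl1/+ and 8.43 FPKM in T2fx/+ retinas in the authors' deposited table. Traf3ip1, a subunit of intraflagellar transport, had 7.21 FPKM in T2Isl1/+ and 7.12 FPKM in T2fx/+ retinas (the authors' deposited table). Adipor1, an adiponectin receptor whose loss in mice leads to photoreceptor degeneration, had 42.8 FPKM in T2Isl1/+ and 40.6 FPKM in T2fx/+ retinas in the authors' deposited table.

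Pde6d, Kcnj13 and Sag lie near each other, with their lowest annotated positions at 86542994, 87386363 and 87803680 on chromosome 1. Between Pde6d and Kcnj13 lies Chrng, the gamma subunit gene of the fetal muscle acetylcholine receptor, which was lower in T2Isl1/+ at 0.300 FPKM, against 1.62 FPKM in T2fx/+ retinas (q = 0.0116, the authors' deposited table). Its position was looked up after that call was known. The annotated spans of Chrng and Kcnj13 are 174 kb apart, and the Kcnj13 row had a log2 fold change of 0.28 and was not called in the authors' deposited table.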
